A study of Mus musculus with 12 samples.

Results

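The S100 genes are a family of small EF-hand proteins that bind calcium, mostly as dimers, and then dock onto partner proteins such as annexins, myosin heavy chains and p53. Some are also released from cells and act on receptors such as Ager. Most of the mouse genes lie in 1 cluster on chromosome 3, interrupted by the epidermal differentiation complex, a run of genes for the cornified layer of skin, and S100A14 itself is best known from epithelia. The 8 genes described here are S100a14, S100a1, S100a13, S100a16, S100a4, S100a6, S100a11 and S100a10, out of 29546 genes tested. S100a14 was chosen because its signal was higher in Mbd3 KD and Chd4 KD than in the control, and the question was whether the genes around it followed. All 8 genes had at least 1 probe above background and were tested.

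The RNA came from E14 mouse ES cells, a male line, grown without feeders on gelatin in serum with LIF and harvested 48 hr after transient transfection of esiRNAs, pools of short interfering RNAs made by enzymatic digestion of a long double-stranded RNA. EGFP KD, aimed at a gene these cells do not carry, was the control. Dnmt1 KD reduced the maintenance DNA methyltransferase, Tet1 KD an enzyme that oxidises 5-methylcytosine, Mbd3 KD and Mbd2 KD alternative methyl-CpG-binding domain subunits of the NuRD complex, and Chd4 KD the ATPase of that complex. Each of the 6 groups had 2 one-colour Agilent arrays, described as biological duplicates, and every KD was compared with the same 2 EGFP KD arrays, so the KD comparisons are not independent of each other. Each KD is a partial, population-level reduction in 1 cell line.

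Signals are given as log2 of the background-corrected intensity divided by the array's 75th percentile, so 0 is the 75th percentile and 1 unit is a doubling. Values below -4.86 were set to that floor. Each array had from 30310 to 37517 probes well above background. There were 3 slides. Slide 1 carried replicate 1 of the control and of the KDs of Dnmt1, Mbd2 and Mbd3, slide 2 the second control array, both Tet1 KD arrays and replicate 1 of Chd4 KD, and slide 3 replicate 2 of the KDs of Chd4, Dnmt1, Mbd2 and Mbd3, with no control array. Mbd3 signal on the Mbd3 KD arrays differed from the EGFP KD mean by -3.07 and -2.85 log2 units, and the differences of Chd4 signal on the Chd4 KD arrays were -1.55 and -1.01. Those of Dnmt1 on the Dnmt1 KD arrays were -1.64 and -2.35. The array labelled Tet1 KD replicate 1 had Tet1 at -0.02 and a Mbd2 probe at -1.75, while the array labelled Mbd2 KD replicate 1 had Tet1 at -1.79 and that Mbd2 probe at -0.24, so both arrays go against their labels. On the replicate 2 arrays of these KDs, Tet1 was at -1.81 with Tet1 KD and that Mbd2 probe at -1.77 with Mbd2 KD. The brighter Mbd2 probe differed by only -0.08 and -0.07 on the Mbd2 KD arrays. The S100 values of these 2 KDs that are described below are given with and without those arrays.

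S100a14, which encodes an S100 protein of epithelial cells, read -3.47 and -3.17 on the EGFP KD arrays, -0.71 and -0.67 on the Mbd3 KD arrays, and 0.67 and 0.62 on the Chd4 KD arrays. These 3 pairs did not overlap, and the arrays within a pair lay within 0.3 log2 units of each other. The group means were -3.32 ± 0.21 (SD, n = 2) in EGFP KD, -0.69 ± 0.03 in Mbd3 KD and 0.64 ± 0.03 in Chd4 KD, which is a log2 difference of 2.63 (6.2-fold) for Mbd3 KD and 3.96 (15.6-fold) for Chd4 KD. Ranked by log2 fold change among all 29546 genes, S100a14 was at place 6 in Mbd3 KD and at place 3 in Chd4 KD. Chd4 KD was 1.33 log2 units above Mbd3 KD. Because the gene was chosen on these differences, they are a description and carry no test. The gene has 1 probe, which was well above background on all 12 arrays.

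In the other KDs, S100a14 read -3.49 and -2.74 with Dnmt1 KD, -3.49 and -3.47 with Tet1 KD, and -3.67 and -3.11 with Mbd2 KD. None of these pairs was separate from the EGFP KD pair except Tet1 KD, whose 2 arrays lay at or just below the lower control array. The log2 fold change was 0.21 in Dnmt1 KD (limma adjusted p = 0.96), -0.16 in Tet1 KD (limma adjusted p = 1) and -0.07 in Mbd2 KD (limma adjusted p = 1). These 3 tests use the same EGFP KD arrays on which S100a14 was chosen. The Tet1 KD value was -0.15 without its replicate 1, and the Mbd2 KD value was 0.21 without its own replicate 1. The order of the group means was thus Chd4 KD, Mbd3 KD, and then Dnmt1 KD, EGFP KD, Mbd2 KD and Tet1 KD, and the arrays of these last groups overlapped between -3.67 and -2.74.

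The difference of S100a14 was also present between arrays of 1 slide. On slide 1, Mbd3 KD replicate 1 was 2.76 log2 units above EGFP KD replicate 1, and on slide 2, Chd4 KD replicate 1 was 3.84 above EGFP KD replicate 2. On slide 3, Chd4 KD replicate 2 was 1.28 above Mbd3 KD replicate 2. Normexp background correction with offset 50, which compresses dim signals, gave 1.46 for Mbd3 KD and 2.65 for Chd4 KD.

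**Figure D1:**
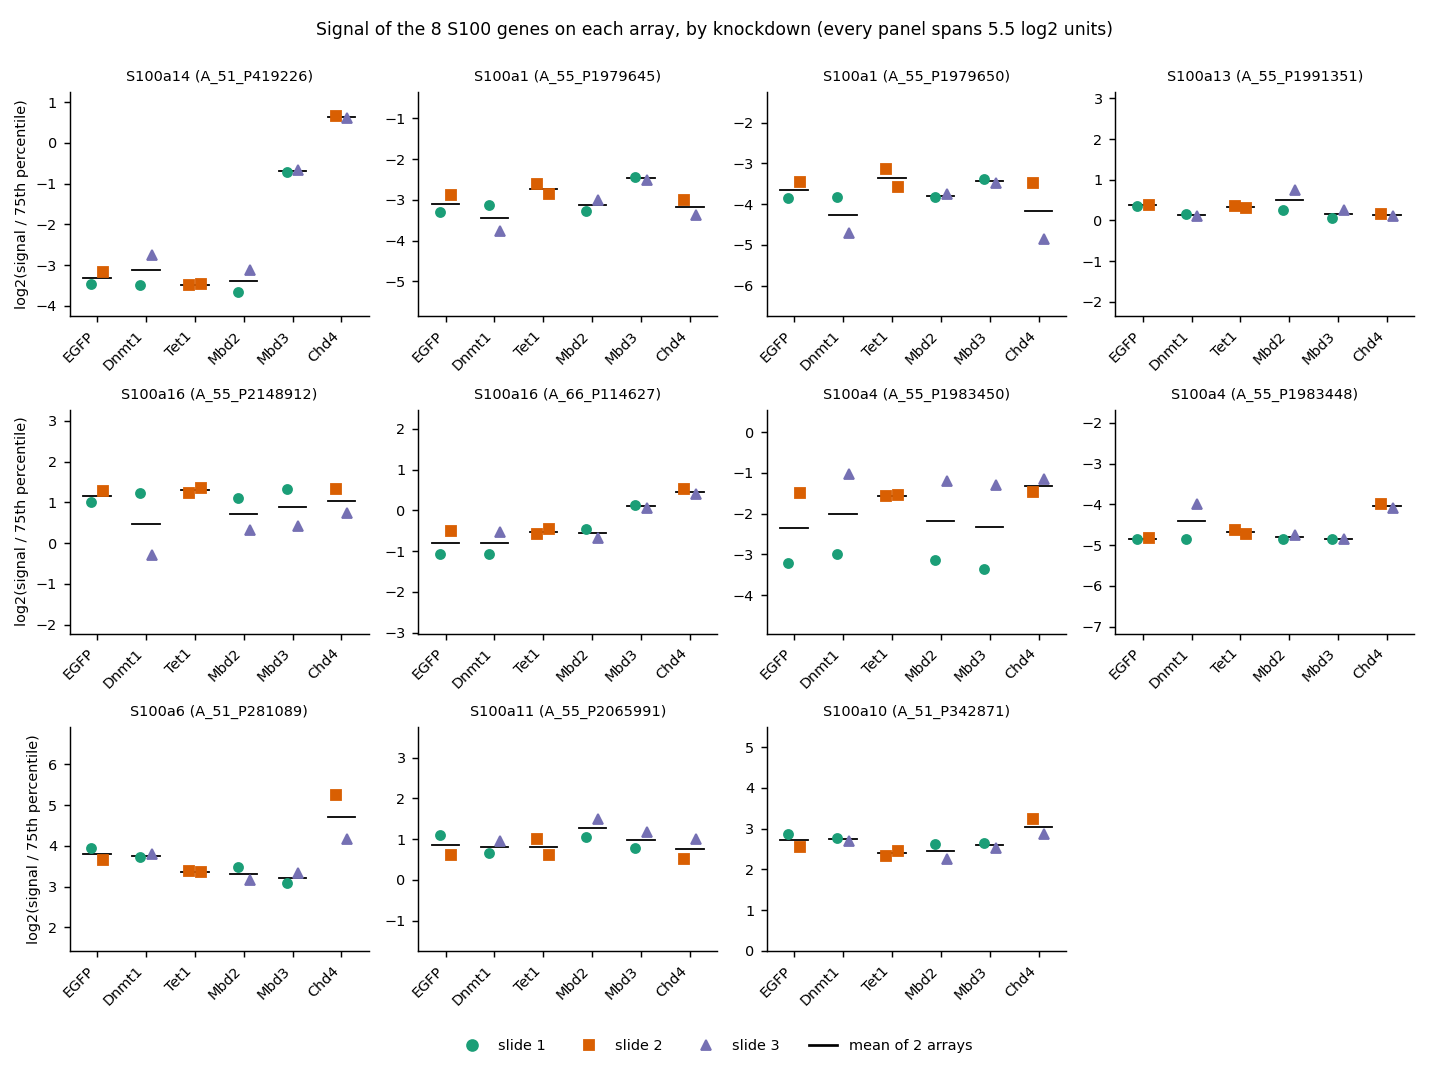
Each panel plots 1 probe of the 8 S100 genes, with the KD group on the x axis and log2 of the signal over the array's 75th percentile on the y axis. Symbols are single arrays, coloured and shaped by slide, and lines are means of 2 arrays. Every panel spans the same number of log2 units, and S100a14 rises from -3.32 in EGFP KD to -0.69 in Mbd3 KD and 0.64 in Chd4 KD, while the brighter S100a4 probe separates by slide instead.

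None of the other 7 genes passed the test in any KD. In Mbd3 KD 0 of 7 passed (limma, adjusted p under 0.05), beside 0.762% of all genes (0.474% higher and 0.288% lower), and their median log2 fold change was -0.13 (range -0.57 to 0.62) against -0.03 over all genes. In Chd4 KD 0 of 7 were called, beside 3.2% of all genes (1.97% higher and 1.24% lower), with a median of -0.10 (range -0.24 to 1.03) against 0 over all genes. With backgrounds this low, a count of 0 among 7 does not set these genes apart from the rest. Before adjustment, 1 of 7 had a limma p under 0.05 in Mbd3 KD (S100a1) and 1 of 7 in Chd4 KD (S100a6), where 9.66% and 12.8% of all genes did. Between Chd4 KD and Mbd3 KD 0 of 7 were called, beside 1.41% of all genes (1.01% higher), and 3 had an unadjusted limma p under 0.05, as 10.1% of all genes did. No gene of any kind was called in Dnmt1 KD, Tet1 KD or Mbd2 KD by limma, while 1379, 841 and 610 genes respectively had an unadjusted p under 0.05, none of them among the 7. Dnmt1 itself, at -1.64 and -2.35 in Dnmt1 KD, was not called either (smallest limma adjusted p of any gene there 0.077). A lack of calls thus does not show a lack of response to these KDs. The median over the 7 was -0.04 in each of these KDs, with ranges of -0.69 to 0.35 in Dnmt1 KD, -0.43 to 0.80 in Tet1 KD and -0.47 to 0.43 in Mbd2 KD. Without the array of its own group that goes against its label, the median was -0.07 in Tet1 KD (range -0.44 to 0.82) and 0.10 in Mbd2 KD (range -0.84 to 1.14), with 0 of 7 called in each.

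S100a13 and S100a16 are the immediate gene neighbours of S100a14, on either side, and S100a1 follows S100a13. S100a1 and S100a13 lie head to head, with annotated starts 105 bases apart. Of the 8 genes, 6 had RefSeq promoter windows (7 windows, build GRCm38.p6), and the 250 bases before the start are shown for the immediate neighbours and for S100a6, which after S100a14 had the largest rise in mean signal in Chd4 KD among members whose signal did not follow the slides, with the brightest probe standing for each gene. CG dinucleotides are in capitals.
S100a13, chr3:90514185-90514434, plus strand: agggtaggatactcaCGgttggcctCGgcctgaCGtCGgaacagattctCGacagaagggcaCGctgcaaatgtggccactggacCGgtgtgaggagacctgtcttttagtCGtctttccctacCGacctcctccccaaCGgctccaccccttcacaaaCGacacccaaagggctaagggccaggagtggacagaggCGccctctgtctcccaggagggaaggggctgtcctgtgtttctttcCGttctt
S100a16, first start, chr3:90537004-90537253, plus strand: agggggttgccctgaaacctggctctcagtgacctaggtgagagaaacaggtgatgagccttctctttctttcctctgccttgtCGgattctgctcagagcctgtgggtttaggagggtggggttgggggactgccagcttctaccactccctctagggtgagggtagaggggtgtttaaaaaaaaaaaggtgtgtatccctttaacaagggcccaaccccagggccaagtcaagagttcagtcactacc
S100a16, second start, chr3:90540896-90541145, plus strand: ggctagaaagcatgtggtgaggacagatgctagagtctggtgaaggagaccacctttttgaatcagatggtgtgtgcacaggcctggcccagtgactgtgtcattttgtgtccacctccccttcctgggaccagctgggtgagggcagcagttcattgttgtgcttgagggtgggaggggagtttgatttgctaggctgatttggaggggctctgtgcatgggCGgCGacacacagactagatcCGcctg
S100a6, chr3:90612644-90612893, plus strand: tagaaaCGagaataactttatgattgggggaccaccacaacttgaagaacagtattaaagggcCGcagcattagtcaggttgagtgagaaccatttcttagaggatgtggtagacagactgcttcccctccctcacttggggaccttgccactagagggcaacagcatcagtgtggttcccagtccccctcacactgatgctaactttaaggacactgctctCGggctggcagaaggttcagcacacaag
The S100a13 window held 13 CG dinucleotides, the S100a16 windows 1 and 3, and that of S100a6 3, beside a median of 6 over 32851 windows of the same length. The windows of S100a1, S100a4 and S100a11 held 8, 2 and 11. At least as many as S100a13 were found in 31.5% of all windows, and at least 1 in 92.1%.

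S100a13, whose protein takes part in the release of FGF1 and interleukin-1 alpha from cells, read 0.36 and 0.39 in EGFP KD, 0.05 and 0.25 in Mbd3 KD, and 0.16 and 0.12 in Chd4 KD. Both KD pairs lay below the control pair, on the opposite side from S100a14. For S100a13 the fold change on the log2 scale was -0.22 in Mbd3 KD (95% CI -0.60 to 0.15, limma adjusted p = 0.80) and -0.24 with Chd4 KD (95% CI -0.61 to 0.14, limma adjusted p = 0.71).

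S100a16, a broadly expressed S100 gene, had 2 probes that did not behave alike. The brighter probe, which stood for the gene in the fit, read 1.02 and 1.28 in EGFP KD, 1.34 and 0.42 in Mbd3 KD, and 1.32 and 0.75 in Chd4 KD. These groups overlapped, and in each KD with an array on slide 3 that array was the lower one (slide means 1.17, 1.30 and 0.30). The brighter probe's fold change, in log2 units, was -0.27 in Mbd3 KD (SE 0.55, limma adjusted p = 0.95) and -0.11 for Chd4 KD (SE 0.55, limma adjusted p = 1). With slide as a block both turned positive, at 0.18 (limma adjusted p = 0.87) and 0.37 (limma adjusted p = 0.56).

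The dimmer S100a16 probe read -1.07 and -0.51 in EGFP KD, 0.14 and 0.05 in Mbd3 KD, and 0.52 and 0.40 in Chd4 KD. Both KD pairs were above the control pair, and Chd4 KD was above Mbd3 KD. In a fit of all 35690 probes singly, chosen after seeing the data, this probe differed by 0.89 in Mbd3 KD (SE 0.23, limma adjusted p = 0.20) and 1.25 with Chd4 KD (SE 0.23, limma adjusted p = 0.037), and 3.15% of probes were called in Chd4 KD. With slide as a block the values were 1.02 (limma adjusted p = 0.16) and 1.18 (limma adjusted p = 0.057). Between arrays of 1 slide it was 1.21 higher in Mbd3 KD and 1.02 higher in Chd4 KD, so this probe alone among those of the 7 genes reached the threshold, and not in the blocked fit. The Dnmt1 KD arrays read -1.07 and -0.54, those labelled Tet1 KD -0.59 and -0.45, and those labelled Mbd2 KD -0.45 and -0.67.

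S100a1, a calcium sensor best known from heart muscle, read -3.29 and -2.89 in EGFP KD, -2.43 and -2.51 in Mbd3 KD, and -2.99 and -3.38 in Chd4 KD. The Mbd3 KD pair was above the control pair, and the Chd4 KD pair overlapped it. As a log2 fold change, S100a1 gave 0.62 in Mbd3 KD (95% CI 0.01 to 1.22, limma adjusted p = 0.51) and -0.10 with Chd4 KD (95% CI -0.71 to 0.51, limma adjusted p = 0.97). Between the 2 KDs it differed by -0.72 (95% CI -1.32 to -0.11, limma adjusted p = 0.36), the opposite sign from S100a14. The dimmer S100a1 probe gave 0.20 in Mbd3 KD and -0.53 in Chd4 KD, with overlapping arrays. In Tet1 KD S100a1 read -2.60 and -2.86, just above the higher control array, with a log2 fold change of 0.36 (limma adjusted p = 1), and 0.23 without replicate 1, whose array goes against its label.

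S100a4, whose protein binds non-muscle myosin and is associated with cell motility, and S100a6, calcyclin, lie a few genes further on. The brighter S100a4 probe read -3.21 and -1.50 in EGFP KD, -3.37 and -1.29 in Mbd3 KD, and -1.48 and -1.16 in Chd4 KD. Its arrays grouped by slide, with means of -3.18 on slide 1, -1.52 on slide 2 and -1.17 on slide 3. The log2 fold change in Chd4 KD was 1.03 (SE 1.04, limma adjusted p = 0.86), and 0.03 (limma adjusted p = 0.89) with slide as a block. In Mbd3 KD it was 0.02 (limma adjusted p = 1). The dimmer S100a4 probe was at or near the floor in EGFP KD (-4.86 and -4.82) and in Mbd3 KD (-4.86 and -4.86). It read -3.99 and -4.09 in Chd4 KD, and -4.85 and -3.98 in Dnmt1 KD. No fold is given for it, since the floor sets its control values.

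S100a6 read 3.94 and 3.64 in EGFP KD, 3.09 and 3.34 in Mbd3 KD, and 5.24 and 4.16 in Chd4 KD. Both Chd4 KD arrays were above both control arrays and both Mbd3 KD arrays were below them. For S100a6 the log2 fold change was 0.91 in Chd4 KD (SE 0.33, 95% CI 0.14 to 1.68, limma adjusted p = 0.27) and -0.57 in Mbd3 KD (SE 0.33, limma adjusted p = 0.71), and Chd4 KD was 1.49 above Mbd3 KD (limma adjusted p = 0.11). The Chd4 KD arrays differed by more than the control arrays did, and 1 of them decided the call. Without Chd4 KD replicate 2 the value was 1.45 (limma adjusted p = 0.039) against EGFP KD and 2.03 (limma adjusted p = 0.024) against Mbd3 KD, with the remaining array assumed to vary like the other groups. On slide 2 the Chd4 KD array was 1.60 above its control, and on slide 1 the Mbd3 KD array was 0.85 below (a difference of -0.85). The S100a6 arrays read 3.72 and 3.79 with Dnmt1 KD, 3.38 and 3.35 when labelled Tet1 KD, and 3.48 and 3.16 when labelled Mbd2 KD, so Chd4 KD was the group above the rest.

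S100a10, the p11 partner of annexin A2, and S100a11, a partner of annexin A1, lie beyond the epidermal differentiation complex. S100a10 read 2.88 and 2.56 in EGFP KD, 2.65 and 2.53 in Mbd3 KD, and 3.23 and 2.87 in Chd4 KD, and both KDs overlapped the control. The fold change of S100a10 (log2) was -0.13 in Mbd3 KD (95% CI -0.55 to 0.30, limma adjusted p = 0.89) and 0.33 with Chd4 KD (95% CI -0.10 to 0.75, limma adjusted p = 0.58). S100a11 read 1.09 and 0.61 in EGFP KD, 0.78 and 1.18 in Mbd3 KD, and 0.50 and 0.99 in Chd4 KD, which overlapped. Its values were 0.13 in Mbd3 KD (95% CI -0.54 to 0.81) and -0.10 with Chd4 KD (95% CI -0.78 to 0.57), each with a limma adjusted p of at least 0.96.

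Counted without a test, 1 of the 7 genes had both Mbd3 KD arrays above both control arrays (S100a1) and 2 below (S100a6 and S100a13), where 13.1% and 16.9% of all genes did. In Chd4 KD, 2 were above (S100a4 and S100a6) and 1 below (S100a13), where 19.1% and 18.9% of all genes did. Of the remaining KDs, S100a13 was below the control in Dnmt1 KD (10.4% of all genes were), S100a6 and S100a10 were below (12%) and S100a1 above (23.3%) in Tet1 KD, and S100a6 was below in Mbd2 KD (12.4%). Without the arrays that go against their labels, the Tet1 KD differences of S100a6 and S100a10 were -0.44 and -0.27 and the Mbd2 KD difference of S100a6 was -0.63. Over the 12 arrays, Pearson's correlation with S100a14 was highest for S100a10 (0.562) and S100a6 (0.517), and S100a13 was at -0.482. By Spearman's rho the order differed, with S100a4 at 0.538, S100a10 at 0.336 and S100a6 at 0.196. These correlations describe 12 arrays in 6 groups, and the arrays share slides.

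The other S100 genes had no call either. Of 10 further S100 genes with a probe 8 were tested, and S100a8 and S100z, both at the floor on all 12 arrays, were not. S100a7a, S100b, S100g and S100a7l2 were at the floor on 5, 8, 10 and 3 arrays. S100a3, 2 genes from S100a14, read -2.65 and -3.02 in EGFP KD, -2.46 and -1.97 in Mbd3 KD, and -2.22 and -1.62 in Chd4 KD. On the log2 scale S100a3 differed by 0.62 in Mbd3 KD (SE 0.36, limma adjusted p = 0.72) and 0.91 with Chd4 KD (SE 0.36, limma adjusted p = 0.33). It read -2.67 and -1.86 with Dnmt1 KD, -2.97 and -2.55 when labelled Tet1 KD, and -2.31 and -1.89 when labelled Mbd2 KD. In each KD with an array on slide 3 that array was the higher one (slide means -2.52, -2.69 and -1.83). With slide as a block the Mbd3 KD and Chd4 KD values were 0.25 and 0.65 (limma adjusted p = 0.70 and 0.17).

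S100a5 and S100a9 differed between slides: S100a5 had slide means of -2.97, -2.05 and -1.26, and S100a9 of -4.66, -3.64 and -2.97. With slide as a block, their log2 fold changes in Chd4 KD were 0.01 and -0.01 (limma adjusted p = 1 for both). S100a2, singled out after its values were seen, had the highest Chd4 KD value of the cluster's S100 genes after S100a14, at 2.12 (SE 1.53, limma adjusted p = 0.76). It read -1.97 and 1.02 in EGFP KD, -1.45 and 1.09 in Mbd3 KD, and 1.52 and 1.78 in Chd4 KD, with a slide 1 mean of -1.79 against 1.07 and 1.26 on the other slides. With slide as a block its value was 0.68 (limma adjusted p = 0.11), and between the slide 2 arrays 0.49.

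**Figure D2:**
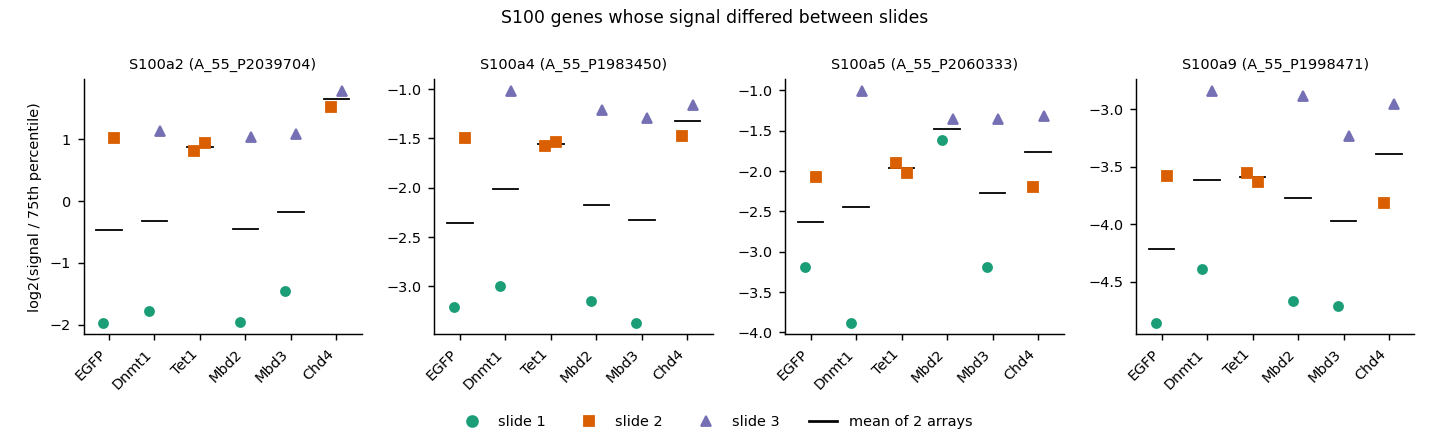
Signal of S100a2, S100a4, S100a5 and S100a9 by KD group (x axis), as log2 of the signal over the array's 75th percentile (y axis). Symbols are single arrays, coloured and shaped by slide, and lines are means of 2 arrays. The slide 1 arrays are the lowest for S100a2, with a mean of -1.79 against 1.07 on slide 2 and 1.26 on slide 3.

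To look beyond the 8 genes, 25 protein-coding genes were taken on each side of S100a14, of which 45 are not among the 8 genes and 38 of these were tested. None was called in Mbd3 KD (0.762% of all genes were), where 5 of 38 had an unadjusted limma p under 0.05 beside 9.66% of all genes, and 2 were called in Chd4 KD (5.26%, against 3.2% of all genes). In Mbd3 KD the 38 had a median of 0.05 (range -0.96 to 1.47). The highest, named after its value was seen, was Il6ra, 24 genes away, at 1.47 (limma adjusted p = 0.089), and its Chd4 KD value was 0.45 (limma adjusted p = 0.67). Slc27a3, which encodes a fatty acid transport protein and lies 8 genes away, read 0.52 and 0.61 in EGFP KD, 1.03 and 1.35 in Mbd3 KD, and 1.38 and 1.59 in Chd4 KD. Slc27a3 had a log2 fold change of 0.92 in Chd4 KD (SE 0.13, limma adjusted p = 0.015) and 0.63 in Mbd3 KD (limma adjusted p = 0.12). Jtb, 14 genes away on the same side, read 1.83 and 1.98 in EGFP KD, 1.37 and 1.48 in Mbd3 KD, and 1.29 and 1.38 in Chd4 KD, with log2 fold changes of -0.57 (limma adjusted p = 0.040) in Chd4 KD and -0.48 (limma adjusted p = 0.13) in Mbd3 KD. Both calls depended on single arrays: Slc27a3 lost its call without either EGFP KD array or without Chd4 KD replicate 2 (log2 fold changes 0.88, 0.96 and 0.82 with limma adjusted p = 0.10, 0.069 and 0.11), and Jtb lost it when any array of the groups other than Tet1 KD was left out (-0.65 to -0.49 with limma adjusted p between 0.059 and 0.18). The sizes stayed close to those in the full fit. The 10 nearest genes, 5 on each side, had a median of -0.03 in Mbd3 KD (range -0.27 to 0.62) and -0.11 with Chd4 KD (range -0.50 to 2.12, the highest being S100a2).

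**Figure D3:**
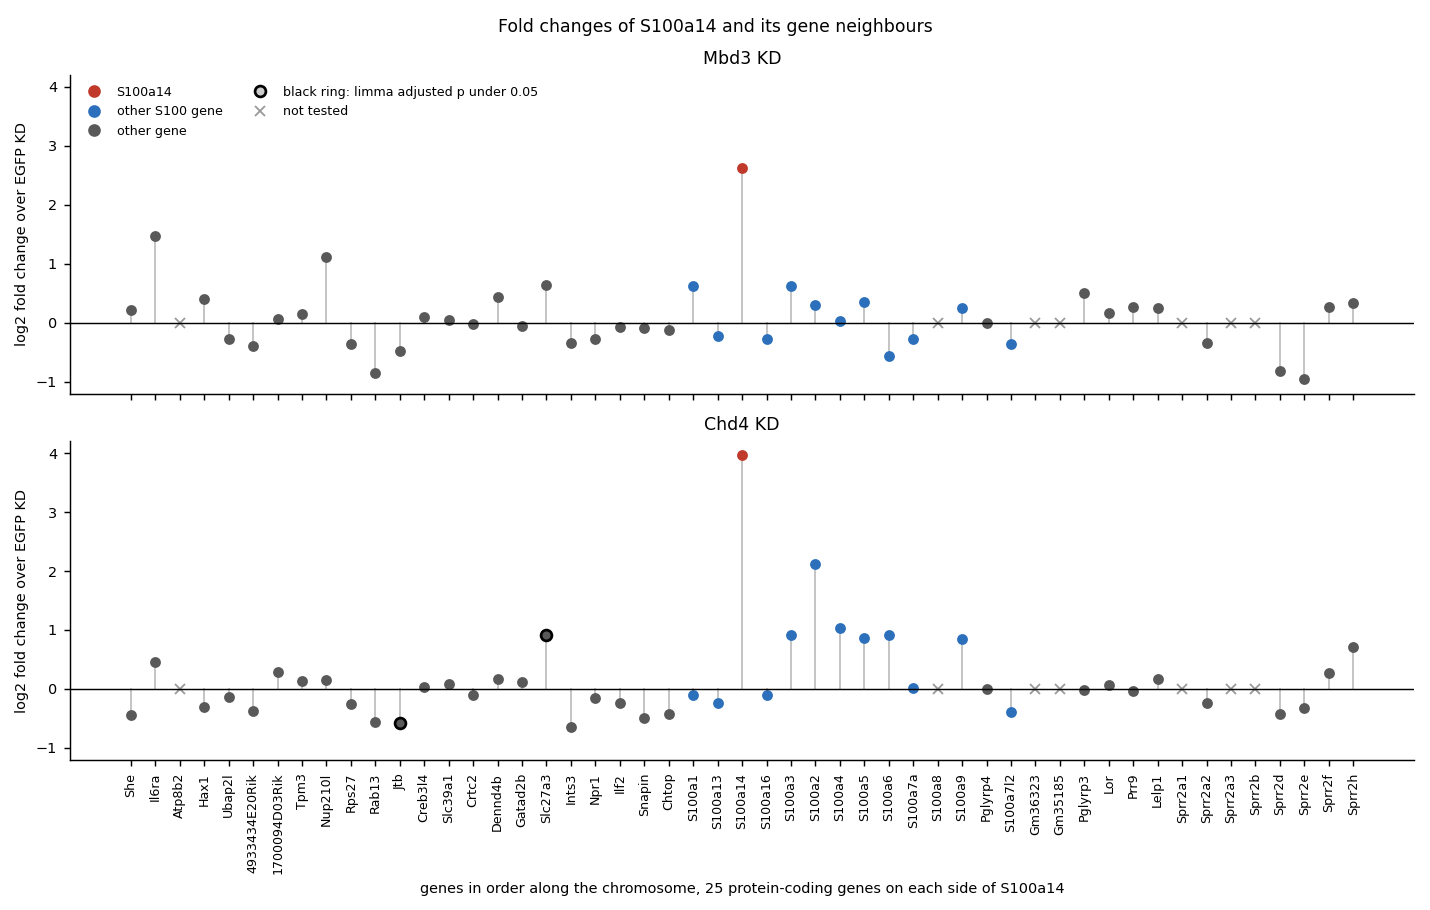
The x axis lists S100a14 and the 25 protein-coding genes on each side in chromosomal order and the y axis gives the log2 fold change over EGFP KD, for Mbd3 KD above and Chd4 KD below. Blue points are other S100 genes, black rings mark a limma adjusted p under 0.05, and crosses mark genes that were not tested. S100a14 stands at 2.63 and 3.96, and the rings are on Slc27a3 and Jtb in Chd4 KD.

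The epidermal differentiation complex genes, between S100a9 and S100a11, contributed no call: 45 of 83 were tested, with medians of -0.01 in Mbd3 KD and -0.02 in Chd4 KD and with 3 and 4 genes at an unadjusted limma p under 0.05, where 9.66% and 12.8% of all genes were. Of 21 S100 partners and receptors 19 were tested and 0 were called in any KD, beside the same low shares of called genes. In each of Mbd3 KD and Chd4 KD 3 of 19 had an unadjusted limma p under 0.05, beside 9.66% and 12.8% of all genes. The partner nearest to a call, named after its values were seen, was Anxa1, a calcium-dependent membrane-binding protein. It read -0.21 and 0 in EGFP KD, -1.38 and -1 in Mbd3 KD, and -1.03 and -0.97 in Chd4 KD, so that both pairs lay below the control. For Anxa1 the fold change (log2) was -1.09 in Mbd3 KD (limma adjusted p = 0.088) and -0.90 with Chd4 KD (limma adjusted p = 0.080), and it was called in Chd4 KD with slide as a block (-1.04, limma adjusted p = 0.042) but not in Mbd3 KD (-1.12, limma adjusted p = 0.094). Anxa2, the partner of S100a10, read 2.99 and 2.86 in EGFP KD, 2.31 and 2.50 in Mbd3 KD, and 3.05 and 3.11 in Chd4 KD, with values of -0.52 (limma adjusted p = 0.18) and 0.15 (limma adjusted p = 0.82).

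The genes most like S100a14 were ranked with the 8 genes and most other S100 genes left out. The leading genes lay on other chromosomes, where most of the ranked genes lie in any case. Over 12 arrays and 19205 genes, the 5 highest Pearson correlations were with Foxj1, the regulator of motile cilia (0.989), Vill, a villin-like actin-binding protein (0.985), Syne2, a nuclear envelope spectrin-repeat protein (0.981), Coro1a, a coronin (0.980) and Padi3, a peptidylarginine deiminase (0.980). They are on chromosomes 11, 9, 12, 7 and 4. With Spearman's rho in place of r, the leading genes were Kif5c, Ell3, Syne2, Arhgef28 and Sbsn, and only Syne2 was common to both lists. Foxj1 had log2 fold changes of 1.84 in Mbd3 KD and 2.98 in Chd4 KD, and Vill 0.90 and 1.40. All 5 had the higher value in Chd4 KD than in Mbd3 KD, which is what the choice by correlation selects.

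**Figure D4:**
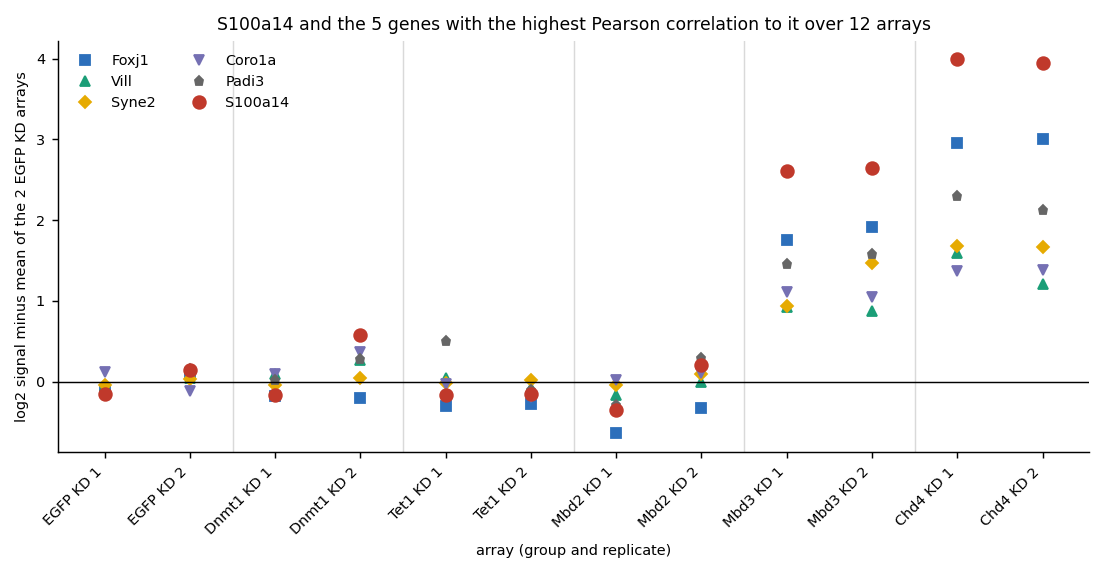
The y axis gives each gene's log2 signal minus its mean over the 2 EGFP KD arrays, and the x axis the 12 arrays by group and replicate, for S100a14 (red circles) and the 5 genes with the highest Pearson correlation to it. Each point is 1 array, and S100a14 and Foxj1 are highest on the Chd4 KD arrays.

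Some marker genes of other cell types were also higher in Mbd3 KD and Chd4 KD, where 0.762% and 3.2% of all genes were called. The summed scaled signal (relative to the array's 75th percentile) of 8 trophectoderm markers was 6.88 to 7.59 in EGFP KD, 11.5 to 11.8 in Mbd3 KD and 14.2 to 14.9 in Chd4 KD, where Krt18 and Tfap2c were called higher. In Mbd3 KD Tfap2c was called higher and Gata3 lower. Gata3 was at the floor on both Mbd3 KD arrays, as on the Dnmt1 KD and Tet1 KD arrays. Most of the trophectoderm sum came from Tfap2c and Krt18, already the brightest of the list in EGFP KD. Tfap2c read 1.84 and 2.15 in EGFP KD, 2.86 and 2.74 in Mbd3 KD, and 3.03 and 3.05 in Chd4 KD. Krt18 read 1.21 and 1.12, 1.57 and 1.94, and 2.25 and 2.45 in the same groups. Cdx2, a defining trophectoderm gene, was at the floor on all 4 arrays of Mbd3 KD and Chd4 KD. The sum of the 6 tested fibroblast markers was 4.43 to 5.08 in EGFP KD, 9.10 to 9.29 in Mbd3 KD and 9.01 to 11.7 in Chd4 KD, and without Thy1 it was 1.19 to 1.60, 0.989 to 1.11 and 0.954 to 1.78. Thy1 was called higher in both KDs and Col1a1 in Chd4 KD, while the median log2 fold change of the fibroblast list was -0.20 in Mbd3 KD and -0.28 in Chd4 KD. The 7 primitive endoderm markers summed to 1.14 to 1.87 in EGFP KD, 2.50 to 2.72 in Mbd3 KD and 1.93 to 2.27 in Chd4 KD. These rises came largely from Amn, the only marker of the list called, with log2 fold changes of 2.56 and 1.60. Amn read -2.21 and -2.16 in EGFP KD, 0.14 and 0.61 in Mbd3 KD, and -0.66 and -0.51 in Chd4 KD. Of the others, Gata6 and Foxa2 were lower and Gata4, Sox7, Sox17 and Dab2 higher in both KDs, without a call.

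Marker sums outside the control range were also seen in other KDs, with 0 genes called. In Dnmt1 KD the fibroblast list was above it, at 6.44 to 6.91, and the trophectoderm list below it, at 6.69 to 6.77. In Tet1 KD the fibroblast list was at 5.64 to 5.82 and primitive endoderm at 1.94 to 2.14, both above it. Without Thy1 the fibroblast sum was 1.3 to 1.36 in Dnmt1 KD and 1.58 to 1.6 in Tet1 KD. Both lay within the EGFP KD range of 1.19 to 1.6. The Tet1 KD sums include replicate 1, which goes against its label. Of 9 ES cell markers 0 were called in any KD. Pou5f1, Esrrb, Zfp42 and Dppa5a were saturated on at least 11 arrays and made up 74% to 83.8% of the list's sum in EGFP KD, Mbd3 KD and Chd4 KD, so that sum says little about their levels. It was 135 to 159 in EGFP KD and 128 to 175 in Mbd3 KD. The 5 ES cell markers that were not saturated summed to 31.9 to 35 in EGFP KD, 32 to 36.8 in Mbd3 KD and 23.5 to 28.9 in Chd4 KD, and the Nanog probe was near the floor. The part of these markers in the S100a14 signal was not tested, and a rise in all cells and a larger share of cells with the gene cannot be told apart in bulk RNA.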

How the data were processed

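The authors labelled RNA with 1 dye, hybridised 1 sample per array and read the spots with Agilent Feature Extraction 10.7.1.1. The deposited scanner files hold spot intensities, which that software corrected for local background and did not normalize between arrays. A deposited table of log2 differences from the control (10 columns) holds the authors' own comparisons and was not used.

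Each array's intensity was divided by its 75th percentile over non-control spots (1784.5 to 2451.6), floored at 0.0344 and log2 transformed. Spots of a probe were averaged (39429 probes), spots marked as outliers and 1377 control spots were left out, and a probe was kept where any group had it well above background on its 2 arrays. The brightest probe stood for a gene (29546 genes, 19219 with a symbol, by RefSeq accession). limma 3.58.1 (R 4.3.3) fitted 1 linear model of 6 groups to all 12 arrays, with Benjamini-Hochberg adjustment, and the steps were tested on simulated data. Genes with an adjusted p under 0.05 were called. The p-values measure the spread between 2 arrays per group, and their number limits the precision. In every group but Tet1 KD the 2 arrays lay on different slides, so this spread includes differences between slides. It also includes the 2 arrays that go against their labels. Named were the 8 genes, the other S100 genes, targeted genes, called genes of each list and the 5 genes most like S100a14. Il6ra and Anxa1 were named after their values were seen. The members, the lists and their rules were chosen with earlier results of these data known. Alternatives covered scaling, background, filter, probe choice, blocks and left-out arrays.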

Additional observations from a re-analysis of the deposited data

How the results depend on the processing

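The 2 arrays per group set the limit on precision, and slide and KD are partly confounded: slide 3 has no control array. The number of S100 genes called other than S100a14 stayed at 0 under every alternative tried, with 2 exceptions: the dimmer S100a16 probe gave a call in Chd4 KD, and leaving out 1 array gave 0 to 1 in Chd4 KD and 0 to 1 between Chd4 KD and Mbd3 KD (S100a6, as reported above). The 2 neighbours called in Chd4 KD became 0 with quantile normalization, 0 with normexp, 0 with only the 4 arrays of the comparison, 1 with probes well above background on all arrays, 1 with a trended and robust variance prior, and 0 to 2 when 1 array was left out. The epidermal differentiation complex genes called in Mbd2 KD ranged from 0 to 1 when 1 array was left out, the call being Flg2 without Mbd2 KD replicate 2 (2.63), which rests on 1 array that goes against its label, with its spread taken from the other groups. For S100a16 the dimmer probe, chosen after seeing the data, gave 1.25 (limma adjusted p = 0.037) in Chd4 KD in place of -0.11. S100a14 has 1 probe, so no other probe could be tried. The cause was not tested for any of these.

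Same-numbered arrays of different groups deviated from their group means with correlations from -0.042 to 0.767 over 15 pairs of groups. Arrays with the same number thus deviated alike in some pairs of groups and not in others. Replicate number and slide partly coincide, since replicate 1 of the control and of the KDs of Dnmt1, Mbd2 and Mbd3 shared slide 1. With the replicate number as a block, 0 members were called in every KD, and 246 genes were called in Mbd3 KD and 1277 in Chd4 KD in place of 225 and 946. The block gave 1 call among the partners in Mbd3 KD and 1 in Chd4 KD (Anxa1 in both, limma adjusted p = 0.035 and 0.020) and 1 among the epidermal differentiation complex genes in Chd4 KD (Crnn, -0.66). With slide as a block, 1 partner was called in Chd4 KD (Anxa1), the neighbours called in Chd4 KD were Slc27a3 and 4933434E20Rik (-0.58) and no longer Jtb (limma adjusted p = 0.072), and 57 genes were called in Mbd3 KD and 1296 in Chd4 KD.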
